A study of Mus musculus with 6 samples.

Results

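The 28 genes described here encode enzymes that build cholesterol from acetyl-CoA (21 genes), proteins that control the transcription factor SREBP2 (6 genes) and the sterol carrier Stard4. They were selected by symbol, with earlier results of these data known. All 28 were found among the 23337 genes of the count table, Msmo1 under its older symbol Sc4mol. All 28 also passed the filter on low counts, with between 91 and 16575 counts in a library, and so belong to the 14222 genes tested.

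RNA was sequenced from primary sinusoidal endothelial cells, the fenestrated lining cells of the liver capillaries, taken from mice with antibody-coated magnetic beads and seeded on collagen IV. After growth in medium with serum the cells of both groups were starved of serum. The libraries held 48948948 to 57923937 counts in control and 58503669 to 68489956 in stretch cells. Control cells (3 libraries, replicates 2, 3 and 4) stayed unstretched, and stretch cells (3 libraries, replicates 1, 2 and 4) underwent 4% cyclic stretch at 1 Hz on a Flexcell device, which pulls on the flexible membrane under the cells. The sources used here do not give strain, genotype, age, the duration of stretch or whether each library is a separate isolation. The p-values below therefore measure the spread between these libraries, which may be technical.

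Cholesterol is made by a long chain of enzymes, some of them cytosolic and others in the endoplasmic reticulum. Acetyl-CoA is condensed and reduced to mevalonate, mevalonate becomes isoprenoid units, and these are joined to squalene, closed to lanosterol and trimmed to cholesterol. SREBP2, the product of Srebf2, is held in the membrane of the endoplasmic reticulum by SCAP and the INSIG proteins while sterols are plentiful. When sterols fall, SCAP carries it to the Golgi, the site-1 and site-2 proteases (Mbtps1 and Mbtps2) release its active part, and it switches on most genes of the chain, Insig1 among them.

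The promoters of 6 members are shown because they span the range of the changes: Mvd and Lss had the largest decreases, Mvk and Insig1 large ones and Hmgcs1 a moderate one, and Mbtps2 did not fall. Each window runs from 250 bases before to 50 after a RefSeq transcription start (GRCm38.p6) and is written 5′ to 3′ on the strand of the gene. Capitals mark the core of the sterol regulatory element, to which SREBP2 binds, and CCAAT boxes, to which its partner NF-Y binds, on either strand.
Mvd, chr8:122443373-122443672, minus strand: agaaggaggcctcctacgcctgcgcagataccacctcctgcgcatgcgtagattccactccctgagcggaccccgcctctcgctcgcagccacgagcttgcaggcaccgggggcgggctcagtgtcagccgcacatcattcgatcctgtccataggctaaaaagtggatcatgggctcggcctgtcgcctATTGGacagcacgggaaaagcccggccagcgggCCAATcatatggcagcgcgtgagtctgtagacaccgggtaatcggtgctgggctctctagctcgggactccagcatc
Lss, chr10:76531355-76531654, plus strand: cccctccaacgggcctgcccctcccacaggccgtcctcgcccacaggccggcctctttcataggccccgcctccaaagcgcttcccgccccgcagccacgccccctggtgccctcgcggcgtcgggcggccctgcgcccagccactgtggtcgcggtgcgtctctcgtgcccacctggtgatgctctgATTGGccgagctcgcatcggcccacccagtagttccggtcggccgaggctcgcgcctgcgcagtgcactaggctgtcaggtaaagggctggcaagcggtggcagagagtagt
Mvk, chr5:114444019-114444318, plus strand: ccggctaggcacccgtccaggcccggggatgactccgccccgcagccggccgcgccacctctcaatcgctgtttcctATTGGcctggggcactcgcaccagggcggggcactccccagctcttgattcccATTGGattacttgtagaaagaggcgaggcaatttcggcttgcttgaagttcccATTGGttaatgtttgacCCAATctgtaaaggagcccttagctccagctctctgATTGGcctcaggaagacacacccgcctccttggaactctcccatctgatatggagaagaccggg
Insig1, chr5:28071162-28071461, plus strand: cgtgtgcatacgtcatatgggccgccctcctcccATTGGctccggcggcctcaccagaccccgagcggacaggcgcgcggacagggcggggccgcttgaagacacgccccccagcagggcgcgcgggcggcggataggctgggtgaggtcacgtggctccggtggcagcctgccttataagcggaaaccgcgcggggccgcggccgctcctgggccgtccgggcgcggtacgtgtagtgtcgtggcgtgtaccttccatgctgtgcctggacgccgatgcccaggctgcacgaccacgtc
Hmgcs1, chr13:119690101-119690400, plus strand: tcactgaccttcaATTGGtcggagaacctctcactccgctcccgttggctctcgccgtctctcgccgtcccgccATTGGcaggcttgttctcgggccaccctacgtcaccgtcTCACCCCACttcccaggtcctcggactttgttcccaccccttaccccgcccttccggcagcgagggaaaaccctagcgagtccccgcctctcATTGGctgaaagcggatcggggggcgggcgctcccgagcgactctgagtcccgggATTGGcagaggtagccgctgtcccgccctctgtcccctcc
Mbtps2, chrX:157598666-157598965, minus strand: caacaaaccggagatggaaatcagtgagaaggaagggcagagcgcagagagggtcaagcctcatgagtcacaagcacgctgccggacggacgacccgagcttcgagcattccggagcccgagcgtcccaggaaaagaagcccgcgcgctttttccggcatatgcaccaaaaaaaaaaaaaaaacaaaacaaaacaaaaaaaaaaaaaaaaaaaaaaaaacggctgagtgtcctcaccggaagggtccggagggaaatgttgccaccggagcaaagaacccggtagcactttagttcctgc

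The motifs searched, on both strands, were the sterol regulatory element core TCACNCCAC, the box CCAAT, the GC box GGGCGG, which Sp1 family factors bind, and the E-box CACGTG, and no matches to different motifs overlapped in the members' windows. Of the 28 members 23 had an entry in the RefSeq promoter table (all but Acat1, Fdps, Fdft1, Sqle and Stard4), Sc4mol as Msmo1. A CCAAT box was present for 19 of the 23 (82.6%). The share was 41.1% of all 27025 genes in the promoter table and 42.6% of the 9953 that were also tested. Of the 17 members with an entry that were lower after stretch 15 had the box, and Acat2 and Mbtps1 lacked it. Lbr, Hsd17b7, Insig2 and Srebf2, which were not called lower, had it too. The sterol element core was found for Hmgcs1 alone of these 23, starting 137 bases before the transcription start, against 1.44% of all genes in the promoter table. A GC box was present for 20 members (87.0%, against 38.2% of all and 67.2% of tested genes) and an E-box for 5 (21.7%, against 8.09% and 11.5%). Genes with several starts were counted once when any window matched. For Pmvk the CCAAT box lay only in the window at chr3:89454291-89454590, upstream of the gene's start in the count table (89459118). Of the 29 windows of members, 24 had bases after the start that occur in a transcript of the gene. A match describes letters only, and its absence says nothing of binding.

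After stretch 21 of the 28 genes were lower and 7 did not pass. The decreases ranged from 1.16-fold to 2.04-fold. Calls are from edgeR's quasi-likelihood test, with Benjamini-Hochberg adjustment over all genes tested and a threshold of 0.05, and over all of these genes 22.6% were called lower, 21.4% higher and 44.0% in either direction. The median log2 fold change was -0.585 over the 28 members and -0.015 over all genes tested. A log2 fold change under -0.5 occurred in 16 of the 28 members and in 12.9% of all genes tested. With edgeR 0 members were called higher, with DESeq2 and limma-voom also 0, and 1, Mbtps2, was higher at an unadjusted p under 0.05. By step of the pathway, 2 of 3 genes of the first steps were lower, all 6 from mevalonate to the isoprenoids, all 3 from squalene to lanosterol, 7 of 9 from lanosterol to cholesterol, 2 of 6 control genes and Stard4.

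**Figure D1:**
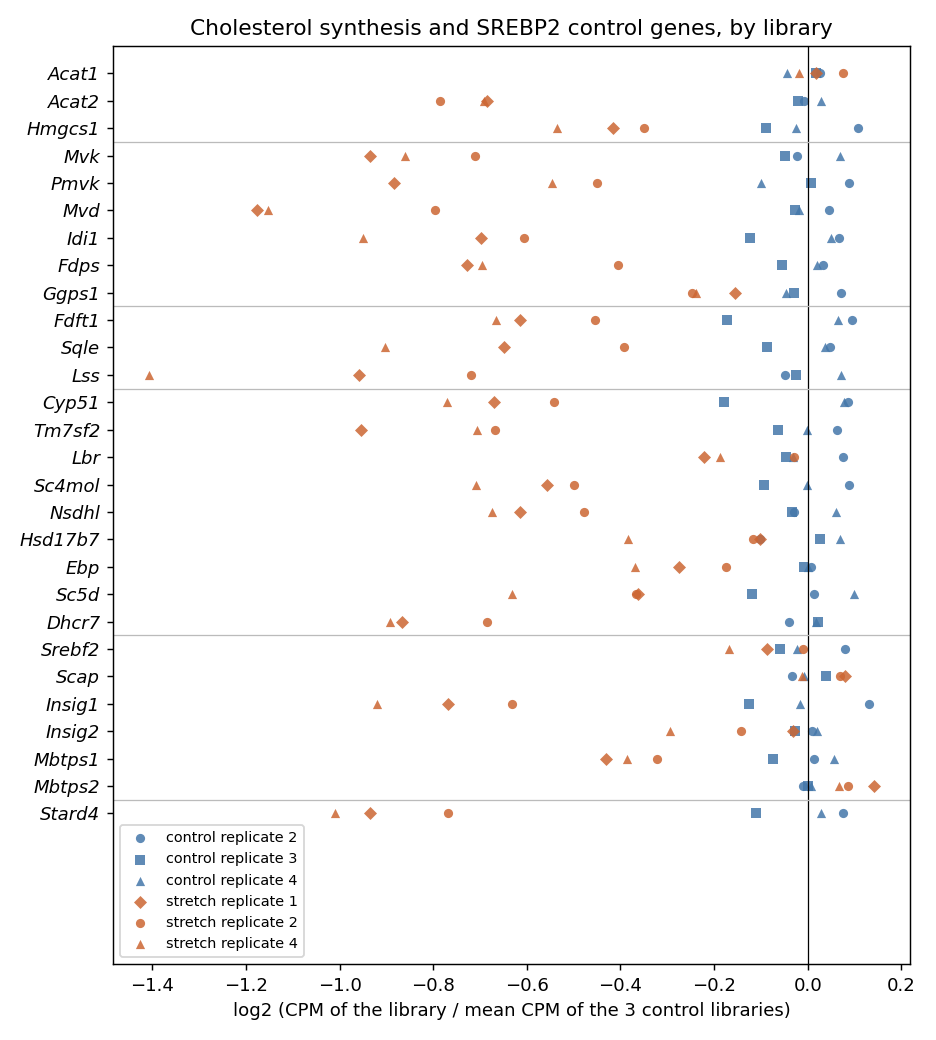
Each row is a gene, in pathway order with grey lines between steps, and each point a library, as log2 of its CPM (counts scaled by TMM library size) over the mean CPM of the 3 control libraries; colour gives the group and shape the replicate. For 22 genes all 3 stretch points lie left of all 3 control points, and for Mbtps2 all lie to the right, though not with library sizes alone as scaling.

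The group ranges were apart for 23 members, with 22 lower and 1 higher after stretch, where over all genes tested the ranges were apart and lower for 29.2% and apart and higher for 26.7%. The libraries also kept an order across the members. Stretch replicate 2 had the highest value of its group for 18 of the 21 lower members and stretch replicate 4 the lowest for 13, while over all genes tested these libraries were highest and lowest in 34.0% and 31.96% of genes. Among control libraries, replicate 3 was lowest for 20 of the 28 members, against 35.0% of all genes tested. Summed over the 28 members, the level was 2306, 2099 and 2233 CPM in control replicates 2, 3 and 4, and 1635, 1750 and 1525 CPM in stretch replicates 1, 2 and 4. In bulk RNA, fewer cells of a type and less RNA per cell cannot be told apart.

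**Figure D2:**
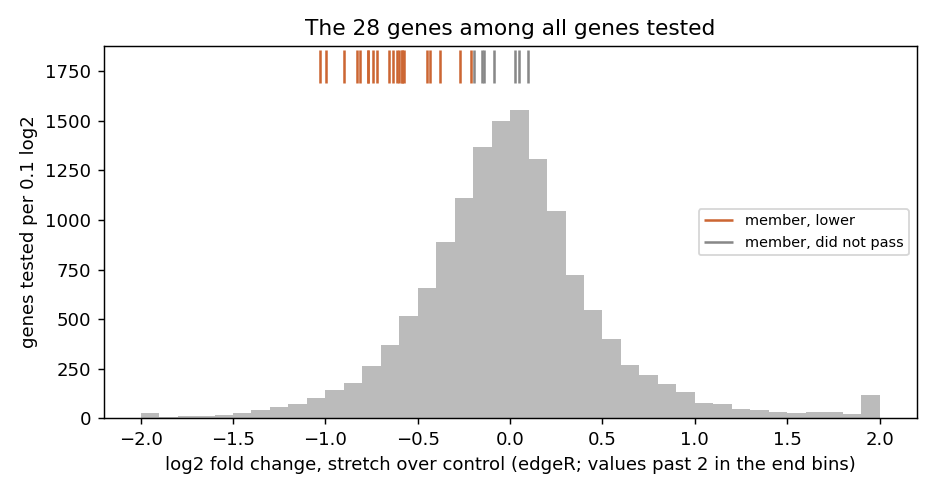
The histogram counts the 14222 genes tested by log2 fold change of stretch over control, with values past 2 in the end bins, and the ticks above it mark the 28 members by their call. The 21 members called lower lie between -1.03 and -0.21, left of the centre of the histogram.

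The genes of the cytosolic and the mitochondrial thiolase differed. Acat2, the cytosolic thiolase that starts the pathway, was at 15.6, 15.5 and 16.04 CPM in control replicates 2, 3 and 4 and at 9.77, 9.12 and 9.73 CPM in stretch replicates 1, 2 and 4. The groups did not overlap, and the log2 fold change was -0.72 ± 0.07 (SE; edgeR adjusted p = 0.000143). Acat1 encodes the mitochondrial thiolase of ketone body and isoleucine metabolism. Its values, 72.4, 71.9 and 68.9 CPM in control and 71.9, 74.9 and 70.1 CPM in stretch replicates, overlapped. The log2 fold change, 0.03 ± 0.05 (edgeR adjusted p = 0.693), turned to -0.066 with library sizes alone as scaling. Hmgcs1, the cytosolic HMG-CoA synthase, fell from 208 ± 14.5 to 154 ± 9.99 CPM (SD, n = 3 per group), a log2 fold change of -0.43 ± 0.07.

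All 6 genes from mevalonate to the isoprenoid diphosphates fell. Mvk, mevalonate kinase, was at 36.4, 35.8 and 38.8 CPM in control replicates 2, 3 and 4 and 19.4, 22.6 and 20.4 CPM in stretch replicates 1, 2 and 4. Its log2 fold change was -0.83 ± 0.07 (edgeR adjusted p = 8.62e-05). Mvd, the decarboxylase that makes isopentenyl diphosphate (chromosome 8, 122433596 to 122443422), changed most of all 28 members: 23.6, 22.4 and 22.6 CPM in control became 10.1, 13.2 and 10.3 CPM in stretch replicates. This was a log2 fold change of -1.03 ± 0.10, with stretch replicate 2 the least reduced. Between them in the chain stands phosphomevalonate kinase, Pmvk, with a log2 fold change of -0.61 ± 0.13 that was -0.49 without stretch replicate 1. The isomerase gene Idi1 fell from 159.5 ± 11.4 to 95.3 ± 11.4 CPM (SD, n = 3 per group; log2 fold change -0.74 ± 0.09). Fdps, which makes farnesyl diphosphate, the last product shared by sterols and other isoprenoids, had a log2 fold change of -0.60 ± 0.08. Ggps1 leads from there into geranylgeranyl diphosphate, used to anchor proteins in membranes, and had the smallest decrease of the 21: 43.3, 40.4 and 39.9 CPM in control and 37.0, 34.7 and 34.9 CPM in stretch replicates. Its log2 fold change of -0.21 ± 0.05 (edgeR adjusted p = 0.0122) did not pass without control replicate 2 (-0.18, edgeR adjusted p = 0.0520).

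The 3 genes from farnesyl diphosphate to lanosterol also fell. Fdft1, squalene synthase, had a log2 fold change of -0.58 ± 0.08. Sqle, the oxygen-dependent squalene epoxidase, was at 98.3, 89.6 and 97.5 CPM in control replicates 2, 3 and 4 and 60.7, 72.5 and 50.9 CPM in stretch replicates 1, 2 and 4 (log2 fold change -0.63 ± 0.11). Lss, the cyclase that closes the ring system (chromosome 10, 76531627 to 76553934), was at 20.05, 20.4 and 21.8 CPM in control and 10.7, 12.6 and 7.82 CPM in stretch replicates. Stretch replicate 4 was the lowest for Lss, and the log2 fold change was -0.998 ± 0.15 (edgeR adjusted p = 0.00106). Without that library it was -0.83.

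Of the 9 genes from lanosterol to cholesterol 7 fell. Dhcr7, the reductase of the final double bond of one arm of the pathway, had the smallest p of these: 19.4, 20.2 and 20.2 CPM in control replicates 2, 3 and 4 against 10.9, 12.4 and 10.7 CPM in stretch replicates 1, 2 and 4 (log2 fold change -0.81 ± 0.08, edgeR adjusted p = 0.000124). Cyp51, the cytochrome P450 that removes a methyl group from lanosterol, had a log2 fold change of -0.66 ± 0.08. Sc4mol (Msmo1) and Nsdhl, which remove further methyl groups, had -0.59 ± 0.07 each. The desaturase gene Sc5d had a log2 fold change of -0.45 ± 0.08 and the isomerase gene Ebp one of -0.27 ± 0.06. Hsd17b7, the ketoreductase that works with these demethylating enzymes, did not pass: its values were 33.8, 37.0 and 38.1 CPM in control and 33.8, 33.5 and 27.8 CPM in stretch replicates (log2 fold change -0.19 ± 0.08, edgeR adjusted p = 0.0949). Stretch replicates 1 and 2 lay at the level of control replicate 2, and stretch replicate 4 lay below all control values.

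The reductase step after Cyp51 can be carried by either of a pair of proteins. Tm7sf2, the scarcer, was at 3.30, 3.02 and 3.16 CPM in control and 1.63, 1.99 and 1.94 CPM in stretch replicates (log2 fold change -0.77 ± 0.16, edgeR adjusted p = 0.00545), again without overlap. Lbr, which also serves as the lamin B receptor of the nuclear envelope, was at 80.2, 73.8 and 74.5 CPM in control and 65.4, 74.6 and 66.9 CPM in stretch replicates, and the groups overlapped through stretch replicate 2. The log2 fold change of Lbr was -0.14 ± 0.06 (edgeR adjusted p = 0.0955). Leaving out stretch replicate 2 brought it past the threshold (-0.19, edgeR adjusted p = 0.0300).

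**Figure D3:**
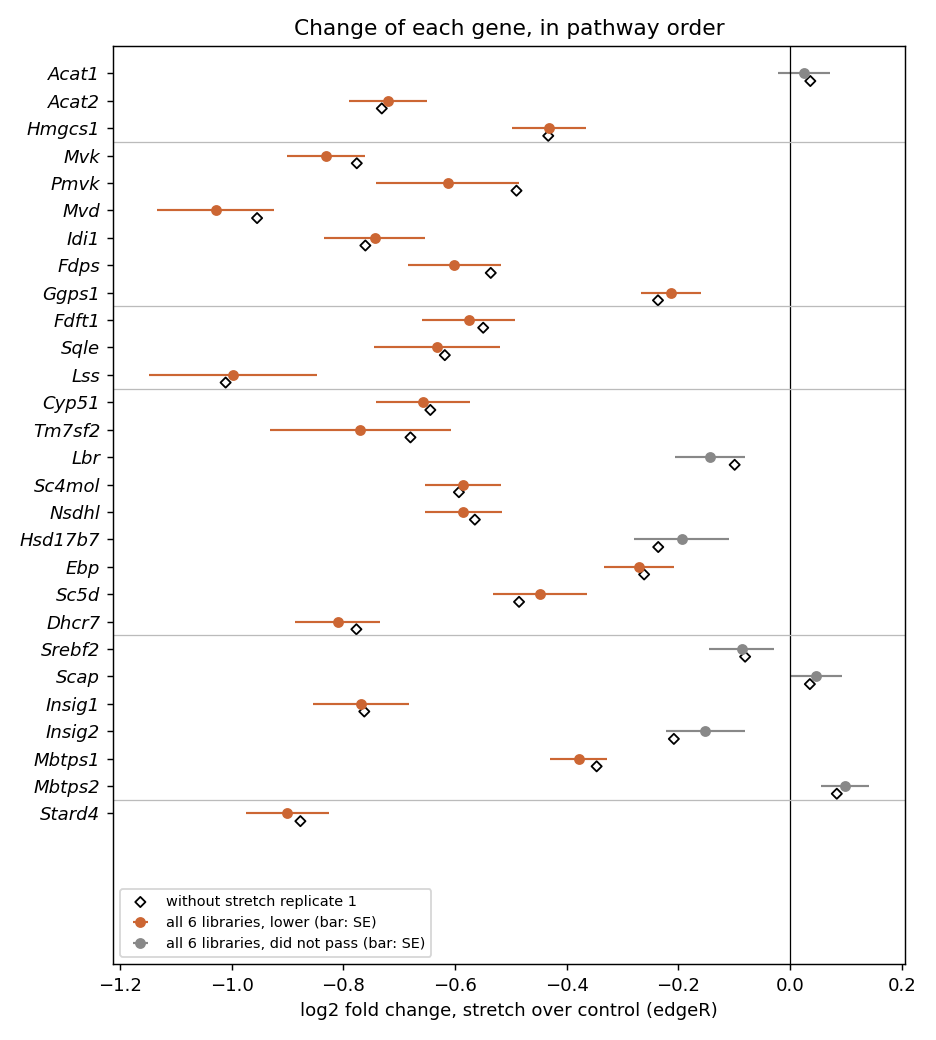
Points give the edgeR log2 fold change of stretch over control with its SE as a bar, in pathway order, and open diamonds the value without stretch replicate 1. Mvd and Lss lie furthest left, and Acat1, Scap and Mbtps2 lie right of 0, of which Acat1 and Scap turn negative with library sizes alone as scaling.

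The genes that control SREBP2 were divided. Insig1, whose protein anchors SCAP and whose gene SREBP2 itself drives (chromosome 5, 28071412 to 28078662), was at 235, 197 and 212 CPM in control replicates 2, 3 and 4 and 126, 138 and 113 CPM in stretch replicates 1, 2 and 4. The groups were far apart (log2 fold change -0.77 ± 0.09, edgeR adjusted p = 0.000251). Insig2, the second anchor, was at 31.1, 30.33 and 31.3 CPM in control and 30.26, 28.03 and 25.2 CPM in stretch replicates. These ranges only just parted, and the log2 fold change of -0.15 ± 0.07 did not pass (edgeR adjusted p = 0.115), although without stretch replicate 1 it did (-0.21, edgeR adjusted p = 0.0333). Srebf2 itself was at 259.9, 236 and 242 CPM in control and 232, 244 and 219 CPM in stretch replicates, ranges that overlapped (log2 fold change -0.09 ± 0.06, edgeR adjusted p = 0.258). Scap, the escort, was at 76.8, 80.8 and 78.2 CPM in control and 83.1, 82.4 and 77.9 CPM in stretch replicates, also overlapping. Its log2 fold change was 0.05 ± 0.05 (edgeR adjusted p = 0.457) and turned to -0.047 with library sizes alone as scaling.

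The proteases that cut SREBP2 differed as well. Mbtps1, the site-1 protease, was at 127, 119 and 131 CPM in control and 93.2, 100.4 and 96.0 CPM in stretch replicates, without overlap (log2 fold change -0.38 ± 0.05, edgeR adjusted p = 0.000632). Mbtps2, the site-2 protease, was at 57.7, 58.1 and 58.4 CPM in control and 64.0, 61.6 and 60.9 CPM in stretch replicates, every stretch value above every control value. With library sizes alone as scaling these ranges overlapped. The difference was small and did not pass (log2 fold change 0.10 ± 0.04, edgeR adjusted p = 0.0949). Stard4, which carries cholesterol between membranes and is a target of SREBP2, had the smallest p of all members. It was at 104, 91.0 and 100.2 CPM in control and 51.4, 57.7 and 48.8 CPM in stretch replicates (log2 fold change -0.90 ± 0.07, edgeR adjusted p = 8.30e-05).

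The unequal change within pairs of related genes was measured as the log2 ratio of their CPM in each library, which does not depend on the scaling. Acat1 over Acat2 moved from 2.18 ± 0.06 to 2.92 ± 0.10, Tm7sf2 over Lbr from -4.59 ± 0.03 to -5.22 ± 0.11, Insig1 over Insig2 from 2.79 ± 0.11 to 2.18 ± 0.12, and Mbtps1 over Mbtps2 from 1.11 ± 0.07 to 0.64 ± 0.08 (mean ± SD, n = 3 per group). In all 4 pairs the stretch ratios lay apart from the control ratios, and each exact two-sided permutation p was 0.1 (0.1 adjusted over the 4 pairs), the smallest that 3 against 3 libraries can give.

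**Figure D4:**
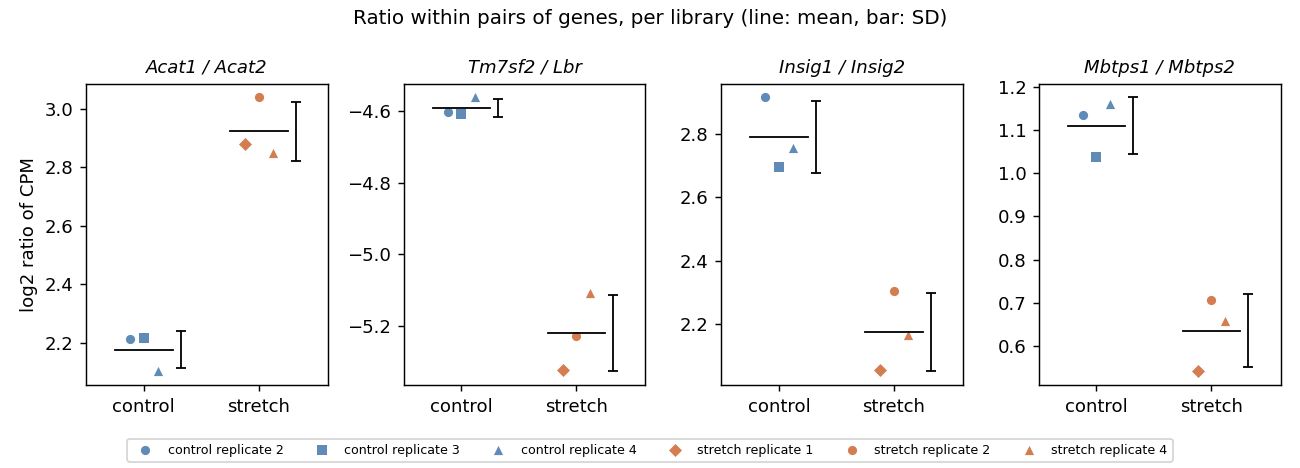
Each panel shows log2 of the CPM ratio of the named genes in each library, with the mean as a line and the SD as a bar; the vertical axes differ between panels and do not start at 0. The groups are apart in all 4 panels, and the difference of means is largest for Acat1 over Acat2 (0.75).

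Levels between genes were compared by the deposited RPKM, which is per coding length and is not TMM-scaled. In control cells Insig1 (77.1 ± 5.94 RPKM), Sc4mol (74.2 ± 3.88) and Fdps (70.3 ± 2.18; mean ± SD, n = 3) led, and neighbours in this order differed by less than the larger of their SDs. Hmgcs1 (60.3 ± 3.42 RPKM), Idi1 (53.0 ± 3.65) and Srebf2 (51.3 ± 1.92) followed, and the remaining 22 members lay between 2.04 RPKM (Tm7sf2) and 33.0 RPKM (Sqle). After stretch Sc4mol (46.6 ± 4.13 RPKM), Srebf2 (45.5 ± 3.28), Fdps (43.7 ± 6.46), Insig1 (42.7 ± 4.99) and Hmgcs1 (42.2 ± 3.40) led, each within an SD of its neighbours in the order. Srebf2 thus went from rank 6 to rank 2, and Stard4 from rank 8 (31.4 ± 1.90 RPKM) to rank 14 (15.8 ± 1.68).

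**Figure D5:**
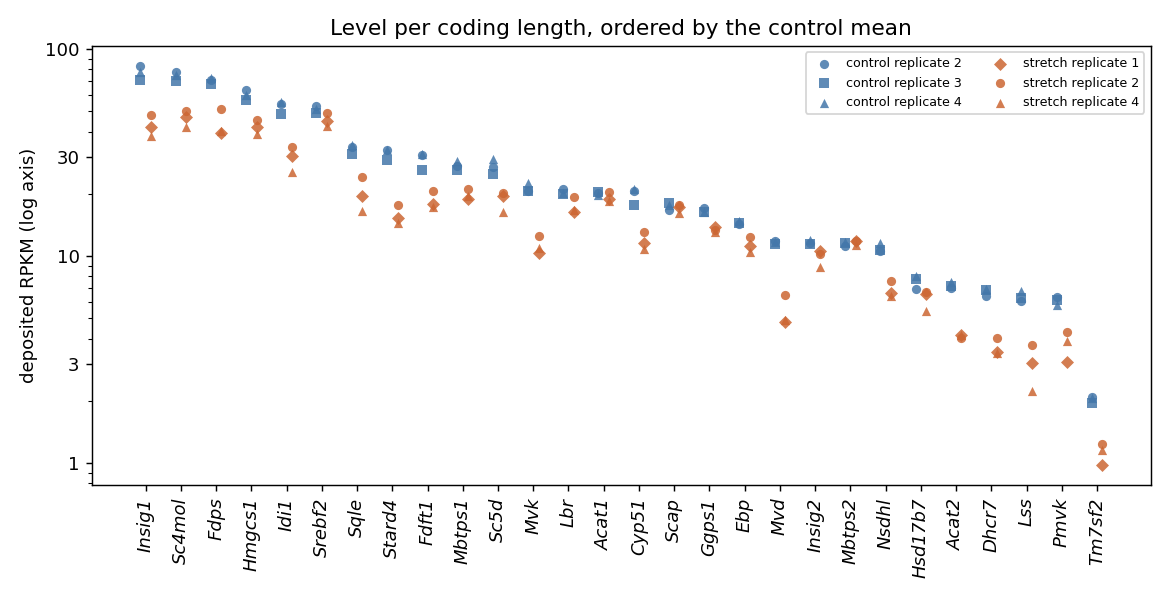
Each point is the deposited RPKM of a gene in a library on a log axis, with genes ordered by their control mean; control points are offset to the left and stretch points to the right. The levels run from about 77.1 RPKM (Insig1, control mean) to 1.12 RPKM (Tm7sf2, stretch mean).

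Of 54 other genes around the pathway 52 were tested: 18 were lower (34.6%, against 22.6% of all genes tested), 12 higher (23.1%, against 21.4%) and 22 did not pass, with a median log2 fold change of -0.04. The share of higher genes was thus near that over all genes. Among 15 genes of the isoprenoid side branches 5 were higher (33.3%) and 0 lower (by edgeR, DESeq2 or limma-voom, and 0 lower at an unadjusted p under 0.05). They included Pdss1 (log2 fold change 0.60 ± 0.13), a subunit of the enzyme that makes the tail of ubiquinone. Nus1 (0.51 ± 0.08), a subunit of the dolichol-making enzyme, was also among them. So were the Rab prenyltransferase subunit Rabggtb (0.42 ± 0.06) and the tRNA isopentenyltransferase Trit1 (0.35 ± 0.08). Pdss2 (-0.20 ± 0.12), Dhdds (-0.08 ± 0.06) and Rabggta (-0.14 ± 0.08), the partner subunits of Pdss1, Nus1 and Rabggtb, did not pass. The median log2 fold change of this list was -0.0015. With library sizes alone as scaling 4 genes of this list were higher. Of 5 tested genes listed as redox partners, Por, the reductase that feeds Cyp51 and Sqle, was higher (0.47 ± 0.07). Cyb5b (-0.14 ± 0.04) and Cyb5r3 (-0.20 ± 0.05) were lower, and Cyb5r1 and Pgrmc1 did not pass.

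A list of Srebf1 and 9 further lipid genes that SREBP1 or SREBP2 can drive had 6 of 10 lower (60.0%) and 1 higher (median log2 fold change -0.43). Lpin1, a phosphatidate phosphatase, fell from 66.4 ± 8.34 to 23.9 ± 2.26 CPM (SD, n = 3 per group; log2 fold change -1.47 ± 0.10, edgeR adjusted p = 5.33e-05). Pcyt2, of phosphatidylethanolamine synthesis, had a log2 fold change of -0.47 ± 0.05 and the fatty acid desaturase gene Fads1 one of -0.49 ± 0.07. The 1 higher gene was Srebf1, which encodes the related factor SREBP1 (0.13 ± 0.04), and its call was lost without stretch replicate 1 and with library sizes alone as scaling.

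Of 8 genes of sterol-regulated protein degradation 3 were lower and 3 higher (37.5% each, against 22.6% and 21.4% of all genes tested). The ubiquitin ligase gene Rnf145 fell most (-0.87 ± 0.10), with Syvn1 (-0.16 ± 0.05) and March6 (-0.22 ± 0.06), and without stretch replicate 1 only Rnf145 of these was still called lower. The higher genes included Aup1 (0.25 ± 0.04) and the conjugating enzyme gene Ube2g2 (0.49 ± 0.04), and with library sizes alone as scaling 2 genes of this list were higher. Of 14 genes of sterol storage and transport 7 were lower and 2 higher (14.3%). Nceh1, which hydrolyses cholesteryl esters, was lower (-0.59 ± 0.05), as were the lipid transfer gene Osbpl2 (-0.38 ± 0.07) and Tmem97 (-0.29 ± 0.08). Soat1, which makes cholesteryl esters, was higher (0.58 ± 0.06), and so was Npc1, which exports cholesterol from lysosomes (0.32 ± 0.05).

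The libraries carried endothelial markers throughout. Some of those listed mark sinusoidal cells, and others, such as Cdh5 and Pecam1, mark endothelial cells in general. The 14 markers summed to 13735 to 15412 CPM in control and 11687 to 13384 CPM in stretch libraries. Of these 9 were called lower and 0 higher, against 22.6% and 21.4% of all genes tested. The markers changed unequally. Gpr182 was at 163 to 214 CPM in control and 67.2 to 96.7 CPM in stretch libraries, and Oit3 at 651 to 790 and 350 to 399 CPM. Cdh5, one of the largest parts of the sum, was not lower (2670 to 3209 and 3059 to 3615 CPM). Hepatocytes make cholesterol too, and their 12 markers summed to 34.3 to 74.0 CPM in control libraries, 514.6 CPM in stretch replicate 1 and 102.9 and 102.8 CPM in stretch replicates 2 and 4 (9 of 11 tested were higher). Without stretch replicate 1 all 21 lower members were still called lower, but the hepatocyte sum also stayed higher after stretch (log2 ratio 0.89). The 11 macrophage markers summed to 78.5 to 93.2 CPM in control and 111 to 149 CPM in stretch libraries, and 8 of the 9 tested were higher. Of the Kupffer cell markers among them, Marco was at 0.17 to 0.36 CPM in control and 1.37 to 4.37 CPM in stretch libraries. Clec4f was at 0 to 0.068 and 0.059 to 0.39 CPM, and Vsig4 at 0.075 to 0.18 and 0.41 to 1.51 CPM. Timd4 was near 0 in both groups and overlapped (0 to 0.040 and 0 to 0.054 CPM). The 5 cholangiocyte markers summed to 80.9 to 107 and 141 to 166 CPM (3 of 5 were higher). For stellate cells (9 markers) the sums were 63.3 to 79.5 and 50.2 to 84.0 CPM, and for lymphocytes (8 markers, 3 of them at 0 in every library) 0.49 to 1.03 and 1.37 to 1.81 CPM. The part of these cells in the members' changes was not tested. Each list's sum was compared by an exact two-sided permutation test, which gave p = 0.6 for stellate markers (0.6 adjusted over the 6 lists) and 0.1 (0.12 adjusted) for each of the others.

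Whether the counting used strand is not stated, so reads of genes that overlap on opposite strands may be shared. Strand cannot separate genes that overlap on the same strand. In GENCODE M21 (GRCm38), 18.3% of the exonic bases of Fdft1 overlapped Ctsb on the opposite strand, which was far more abundant (3279 and 3357 CPM in control and stretch; log2 fold change 0.03). Mbtps2 shared 28.4% of its exonic bases with Yy2 on the same strand, and Yy2 was higher after stretch (log2 fold change 0.54). The values of Fdft1 and Mbtps2 are uncertain to that extent. The other overlaps with a tested gene were with 3.53% to 5.44% of exonic bases, for Ggps1, Lss and Cyp51. Fdps (26.7%, same strand as Gm43738), Hmgcs1 (12.1%, antisense Gm48342), Tm7sf2 (12.1%, same strand as Vps51) and Lbr (9.24%, opposite Dnah14) overlapped genes with no values under those symbols in the count table, so their values are uncertain as well. In the authors' deposited table of their own test, 21 members were below an FDR of 0.05 as lower and 0 as higher.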

How the data were processed

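Raw counts per gene and RPKM values for 6 libraries were deposited by the authors, the RPKM per kilobase of coding length per the file headers. Per the submitters' processing notes the tools were TopHat2 2.1.0, featureCounts and edgeR and the build GRCm38 (mm10), with no roles stated. No source used here gives the annotation, the filters or the strand setting. Log2 fold changes, a p-value with its FDR and a score (the likelihood ratio) fill the authors' own deposited comparison, per the file headers.

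The deposited counts (48948948 to 68489956 per library) were fitted with edgeR 4.0.16 in R 4.3.3: TMM factors (0.953 to 1.045), filterByExpr, glmQLFTest for group and Benjamini-Hochberg adjustment over 14222 of 23337 genes. SE is the estimate over the square root of F. Even numbers made up 67.2% to 69.9% of the counts between 1 and 10, against 49.6% to 50.9% of high counts, a feature of the deposited tables whose source is unknown. Steps were tested on simulated data. DESeq2 1.42.0, limma-voom (limma 3.58.1), RLE factors, library size only, other filters, glmTreat, the replicate block and each library left out were alternatives.

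The members and lists were chosen with earlier results of these data known. All 28 members are accounted for; in other lists the called genes are named, or the 3 of smallest p per direction where over 5 were called. Some genes that this rule names, and further genes of the pathway, are not reported here. Cyb5a and Tmem259 were not found under these symbols.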

Additional observations from a re-analysis of the deposited data

How the results depend on the processing

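Over the 14 alternatives the number of members called lower lay between 19 (glmTreat against a fold of 1.2) and 25 (library sizes alone), and the number called higher was 0 in each. With library sizes alone the median log2 fold change of all genes tested was -0.107 in place of -0.015, calls over all genes were 32.7% higher in place of 48.6%, and Lbr, Hsd17b7, Srebf2 and Insig2 passed as lower (edgeR adjusted p = 0.0236, 0.0309, 0.0416 and 0.0229); Acat1 and Scap then had log2 fold changes of -0.066 and -0.047, and 0 members had group ranges apart and higher. By glmTreat 1327 genes were lower and 1210 higher, of the other pathway genes 7 and 6, and Ggps1 and Ebp did not pass. Leaving out single libraries gave 20 to 22 members lower, and 1 to 2 with ranges apart and higher. On the given strand alone 10 members had a CCAAT box. Replicate numbers 2 and 4 occur in both groups, and deviations from the group means correlated across genes with r = 0.21 and 0.11 for these pairs, against -0.20 to 0.18 for libraries that share no number, and no label says what a number marks. With the replicate number as a block 22 members were lower and 0 higher, Insig2 (edgeR adjusted p = 0.0281) being the added one. By that fit 2855 genes in all were lower and 2713 higher. Its group difference rests on replicates 2 and 4 alone, as numbers 1 and 3 do not occur in both groups. The part of depth in the members' errors was not tested; Tm7sf2, with the fewest counts (from 91 per library), had the largest SE (0.16). With 3 libraries per group no exact test can go below p = 0.1.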
